A study of Mus musculus with 4 samples.

Results

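Glycolysis and hypoxia response genes were examined as 39 listed genes, listed by symbol. On these arrays 35 of them had a probe set, the group of short oligonucleotides that reports one transcript, that the platform annotation assigned to that gene alone. For Gapdh these were array control probe sets, so that 34 genes could enter a test, and 28 of them were bright enough to be tested. Each gene was represented by its brightest probe set. The listed gene Ero1l is named Ero1a in the annotation. No probe set was assigned alone to Gpi1, Eno1, Bnip3l or Ankrd37 in the annotation used here.

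The samples were 4 clones of Py-4-1, a murine line derived from hemangioendothelioma, a vascular tumour of endothelial cells. A pair of clones was labelled pcDNA/Prox1 and described as stable Prox1 transfectants (Prox1 is the homeobox factor that directs lymphatic endothelial fate), and a pair was labelled pcDNA and described as control-transfected. Both groups thus share the cell line, and each clone is a separate transfectant measured once on a one-colour Affymetrix array. Differences between clones, cultures, RNA preparations and arrays cannot be told apart, and oxygen conditions were not given in the sources used here. The study's title asks whether Prox1 promotes invasion of kaposiform hemangioendothelioma.

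Glycolysis turns glucose into pyruvate in the cytosol, and lactate dehydrogenase and the monocarboxylate transporters then dispose of pyruvate as lactate. Endothelial cells are known to draw much of their energy from this route even with oxygen at hand. In hypoxia the HIF transcription factors, which oxygen-dependent prolyl hydroxylases (the Egln proteins) otherwise mark for destruction through Vhl, bind hypoxia response elements with the core ACGTG or GCGTG and raise many glycolytic genes together with genes such as Bnip3, Adm and Car9.

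Values are the deposited probe set intensities, in arbitrary units and on a linear scale, each array scaled to a 2% trimmed mean of 500. Prox1 itself was not brighter in the clones labelled as expressing it. Its 1 probe set read 62.4 and 44.3 in Prox1-labelled clones 1 and 2, against 60.5 in pcDNA clone 2 and 52.1 in pcDNA clone 1 (log2 change -0.047 ± 0.20, limma without the intensity filter, adjusted p = 0.963). The sources used here do not say if the transfected sequence covers it, and the groups are called below by their labels. Of 27 Bacillus control probe sets, made for bacterial transcripts, the brightest read 88.4 and 97.5 in the Prox1-labelled clones and 101 and 45.3 in pcDNA clones 2 and 1. Most endothelial markers were bright, with 12 of 14 tested and a summed intensity of 54685 and 52119 in the Prox1-labelled clones, against 52320 in pcDNA clone 2 and 39776 in pcDNA clone 1. Of these, Vwf and Cldn5 were dim, at no more than 74.7 on any array. Flt1 was tested, but its 42.1 in pcDNA clone 1 lay below the brightest Bacillus control there. It read 182 in pcDNA clone 2 and 390.5 and 369.7 in the Prox1-labelled clones. The 6 epithelial markers summed to 326 to 478 over the 4 arrays, 8 fibroblast and mural markers to 479 to 665, and 7 leukocyte markers to 1365 to 1705, most of it from Cd68 and Csf1r.

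The pcDNA clones differed from each other in many of these genes, with pcDNA clone 2 below pcDNA clone 1 for 19 of the 28 tested (67.9%, beside 43.2% of all tested genes). For 8 members (28.6%, beside 19.0%) both Prox1-labelled clones lay in between. Lactate dehydrogenase A, aldolase A, the lactate transporter gene Slc16a1, Pdk3, Bnip3 and Adm all followed this order. Epas1 and Pdk1 were higher in pcDNA clone 2 than in pcDNA clone 1, without both Prox1-labelled clones in between. Between the groups, 0 of the 28 tested genes passed the threshold of an adjusted p of 0.05 (limma, Benjamini-Hochberg over 11656 probe sets), where 0.115% of 6956 tested genes did. By direction, 0.101% of all tested genes passed as higher and 0.0144% as lower. At an unadjusted p under 0.05, Epas1, Egln3 and Higd1a were higher and Pfkp was lower in the Prox1-labelled clones, that is, 3 and 1 members or 10.7% and 3.57%, beside 8.22% and 6.14% of all tested genes. By its sign the change was positive for 16 members (57.1%, against 50.9% of all tested genes).

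**Figure D1:**
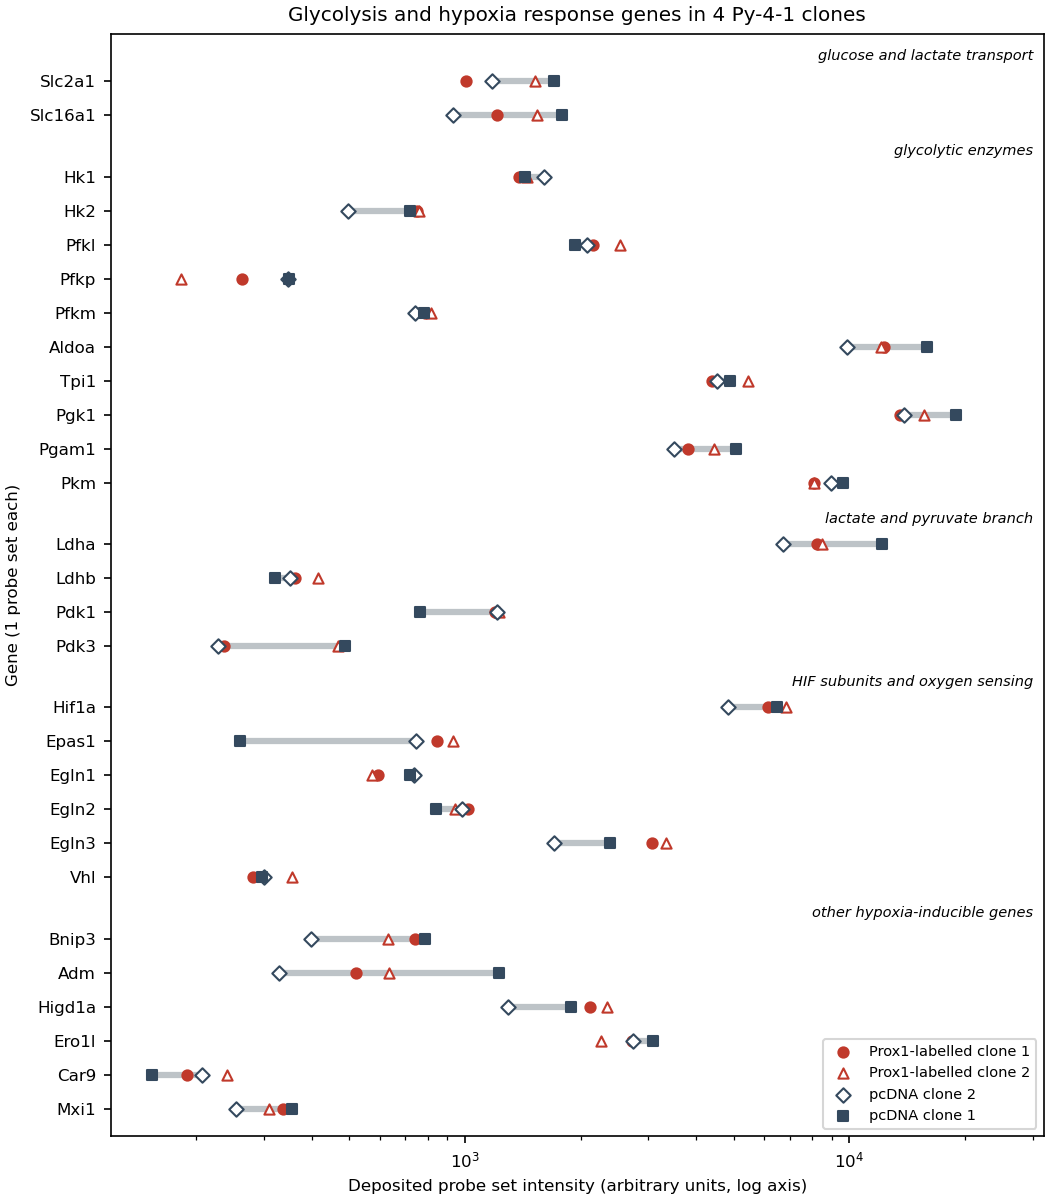
Deposited intensity (x axis, log scale) of the 28 tested genes, 1 row each and grouped by role, in the 4 clones. Red symbols are the Prox1-labelled clones, dark symbols the pcDNA clones, and the grey bar joins the pcDNA clones. The longest bars belong to Adm (329 in pcDNA clone 2 and 1229 in pcDNA clone 1) and Epas1 (747 in pcDNA clone 2 and 261 in pcDNA clone 1).

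Of the glucose and lactate transporter genes, 2 were tested and 2 were dim. Slc2a1, which encodes the glucose transporter GLUT1, read 1005 and 1518 in Prox1-labelled clones 1 and 2, against 1176 in pcDNA clone 2 and 1702 in pcDNA clone 1. The groups overlapped, and the log2 change on the scale log2(intensity + 47) was -0.19 ± 0.26 (SE, adjusted p = 0.791). Slc16a1, which encodes the proton-coupled monocarboxylate transporter MCT1, read 1209 and 1543 in the Prox1-labelled clones, against 934 and 1784 in pcDNA clones 2 and 1. Both Prox1-labelled clones lay between the pcDNA clones, whose log2 difference, clone 2 minus clone 1, was -0.90. Slc2a3 (GLUT3) ran from 41.9 to 101 over the 4 arrays and the lactate exporter gene Slc16a3 (MCT4) from 19.5 to 85.6, within or near the range of the Bacillus controls, and neither was tested.

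Of the enzymes of the upper part of glycolysis, Hk2 had the highest and Pfkp the lowest change between the groups, and none passed the threshold. Hk1 and Hk2 encode the hexokinases that phosphorylate glucose. Hk1 read 1381 and 1449 in the Prox1-labelled clones, against 1607 and 1435 in pcDNA clones 2 and 1 (log2 change -0.099, adjusted p = 0.852). Hk2 read 750.3 and 758 in the Prox1-labelled clones, against 497 and 722 in pcDNA clones 2 and 1. Both Prox1-labelled clones were above both pcDNA clones for Hk2, by a small margin over pcDNA clone 1 (0.31 ± 0.22, adjusted p = 0.568, or 0.059 without pcDNA clone 2 and 0.56 without pcDNA clone 1).

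Phosphofructokinase, the committed step of glycolysis, has liver, platelet and muscle type subunits. Pfkp, the platelet type, read 263 and 182 in the Prox1-labelled clones, against 347 and 348 in pcDNA clones 2 and 1. It was below both pcDNA clones in each Prox1-labelled clone, and the pcDNA clones did not differ. Its log2 change was -0.56 ± 0.22 (unadjusted p = 0.0330), and it did not pass over all probe sets (adjusted p = 0.295). A second, dimmer Pfkp probe set gave -0.12 (adjusted p = 0.863). Pfkl, the liver type, read 2153 and 2537 in the Prox1-labelled clones, against 2077 and 1936 in pcDNA clones 2 and 1 (0.22 ± 0.18, adjusted p = 0.643), and its second probe set had the opposite sign (-0.10, adjusted p = 0.838). Pfkm, the muscle type, read 790 and 816 in the Prox1-labelled clones, against 744 and 783 in pcDNA clones 2 and 1, a change of 0.068 (adjusted p = 0.905). Pfkfb3, which makes an activator of phosphofructokinase and is known as a driver of endothelial glycolysis, lay below the filter. It read 122 and 111 in the Prox1-labelled clones, against 209 and 143 in pcDNA clones 2 and 1 (-0.43 without the filter, adjusted p = 0.619).

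In the lower part of glycolysis the bright probe sets of Aldoa, Pgk1 and Pgam1 were highest in pcDNA clone 1. Aldoa, the aldolase that splits the fructose bisphosphate, read 12260 and 12073 in the Prox1-labelled clones, against 9878 in pcDNA clone 2 and 15896 in pcDNA clone 1. Its 4 probe sets gave log2 differences of -0.70 to -0.64 for pcDNA clone 2 minus clone 1. Pgk1, the phosphoglycerate kinase, read 13518 and 15597 in the Prox1-labelled clones, against 13824 and 18878 in pcDNA clones 2 and 1. Its 3 probe sets gave log2 differences of -1.37 to -0.45 for pcDNA clone 2 minus clone 1, the widest at 2027 against 5323. Pgam1, the phosphoglycerate mutase, read 3811 and 4431 in the Prox1-labelled clones, against 3505 and 5083 in pcDNA clones 2 and 1. For all 3 of these genes the change between the groups was small, from -0.15 to -0.039, with adjusted p of at least 0.770.

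Other enzymes of this stretch showed no such gap. Tpi1, the triosephosphate isomerase, read 4397 and 5458 in the Prox1-labelled clones, against 4515 and 4900 in pcDNA clones 2 and 1 (0.058, adjusted p = 0.918). Its other tested probe sets had both Prox1-labelled clones above both pcDNA clones. They read 4600 and 5554 against 4081 and 4337, and 1742 and 2126 against 1608 and 1675 (0.26 and 0.22, adjusted p = 0.543 and 0.640). Pkm, the pyruvate kinase of most tissues, read 8107 and 8077 in the Prox1-labelled clones, against 8936 and 9642 in pcDNA clones 2 and 1 (-0.20 ± 0.16, adjusted p = 0.621). Gapdh was read only from the array's control probe sets and was not tested. The brightest of these gave 21299 and 19478 in the Prox1-labelled clones, against 19065 and 20434 in pcDNA clones 2 and 1, a log2 difference of -0.10 between the pcDNA clones. Aldoc, the brain type aldolase, ran from 49.3 to 114 and Eno2, the neuronal enolase, from 42.9 to 65.2, and both were below the filter. The probe sets that stand for Aldoa, Tpi1 and Pgk1 carry the suffix that marks probes able to match other transcripts, so that these 3 values may hold signal of related sequences.

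At the branch from pyruvate, Ldha and Pdk3 were higher in pcDNA clone 1 and Pdk1 was lower. Ldha encodes the lactate dehydrogenase subunit that favours lactate formation. It read 8242 and 8472 in the Prox1-labelled clones, against 6697 in pcDNA clone 2 and 12160 in pcDNA clone 1. The Prox1-labelled clones were close to each other and between the pcDNA clones, whose log2 difference, clone 2 minus clone 1, was -0.86. The change between the groups was -0.11 ± 0.26 (adjusted p = 0.886). Without pcDNA clone 2 it was -0.54 and without pcDNA clone 1 it was 0.32, so that the direction rests on which pcDNA clone is kept. Ldhb, the other subunit, read 361 and 414 in the Prox1-labelled clones, against 351 and 321 in pcDNA clones 2 and 1 (0.18, adjusted p = 0.741). A second, dimmer Ldhb probe set, of the kind able to match other transcripts, gave a larger change (0.565, adjusted p = 0.29). It read 188 and 186 in the Prox1-labelled clones, against 121 and 102 in pcDNA clones 2 and 1.

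Pdk1 and Pdk3 encode kinases that switch off pyruvate dehydrogenase and so keep pyruvate from the mitochondrion. Pdk1 read 1197 and 1223 in the Prox1-labelled clones, against 1209 in pcDNA clone 2 and 764 in pcDNA clone 1. On this probe set pcDNA clone 1 stood lower than the other 3 clones, and the change was 0.32 ± 0.23 (adjusted p = 0.585). It was 0.63 without pcDNA clone 2 and 0.002 without pcDNA clone 1. A second Pdk1 probe set read 766 and 1025 in the Prox1-labelled clones, against 1111 and 806 in pcDNA clones 2 and 1 (-0.091, adjusted p = 0.899), so that Prox1-labelled clone 1 was the lowest there. Pdk3 read 236 and 466 in the Prox1-labelled clones, against 228 and 488 in pcDNA clones 2 and 1. Clone 2 of the Prox1-labelled pair was near pcDNA clone 1 and clone 1 near pcDNA clone 2, so that each group spanned the same range (-0.007 ± 0.36, adjusted p = 0.997).

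Among the HIF subunits and the genes of oxygen sensing, Epas1 and Egln3 had the largest changes. Epas1 encodes HIF-2 alpha, the HIF subunit named for its endothelial expression. It read 845 and 930.0 in the Prox1-labelled clones, against 747 in pcDNA clone 2 and 261 in pcDNA clone 1. The Prox1-labelled clones were above both pcDNA clones, but pcDNA clone 1 alone stood well apart. The change was 0.92 ± 0.37 (adjusted p = 0.309). Without pcDNA clone 1 it was 0.23, and without pcDNA clone 2 it was 1.60.

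Egln3, the prolyl hydroxylase that HIF itself induces, read 3063 and 3340 in the Prox1-labelled clones, against 1701 and 2390 in pcDNA clones 2 and 1. The groups did not overlap, and the change of 0.65 ± 0.21 had an unadjusted p of 0.0118 and an adjusted p of 0.220. It was 0.89 without pcDNA clone 1 and 0.41 without pcDNA clone 2. The second Egln3 probe set read 740 and 1106 in the Prox1-labelled clones, against 663 and 606 in pcDNA clones 2 and 1 (0.48, adjusted p = 0.368).

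Hif1a, the HIF-1 alpha gene, read 6156 and 6858 in the Prox1-labelled clones, against 4819 and 6471 in pcDNA clones 2 and 1 (0.22 ± 0.19, adjusted p = 0.664, or 0.006 without pcDNA clone 2 and 0.43 without pcDNA clone 1). Its dimmer probe sets separated the groups, with 1258 and 1447 in the Prox1-labelled clones against 847 and 974 in pcDNA clones 2 and 1, and with 1827 and 1736 in the Prox1-labelled clones against 879 and 1619 in pcDNA clones 2 and 1, at changes of 0.55 and 0.56 (adjusted p = 0.253 and 0.382). Egln1, the main oxygen sensor of most cells, was lower in both Prox1-labelled clones, at 593 and 572, against 737 and 719 in pcDNA clones 2 and 1 (-0.30 ± 0.19, adjusted p = 0.502). Its second probe set gave -0.42 (adjusted p = 0.367). Egln2 read 1017 and 940.1 in the Prox1-labelled clones, against 982 and 841 in pcDNA clones 2 and 1. Vhl, the ubiquitin ligase subunit that recognises hydroxylated HIF, read 282 and 356 in the Prox1-labelled clones, against 299.8 and 296 in pcDNA clones 2 and 1. Neither differed between the groups beyond its error (0.10 and 0.077, adjusted p = 0.857 and 0.905).

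Of the other hypoxia-inducible genes, Adm had the widest range over the clones and Higd1a the largest change between the groups. Adm encodes adrenomedullin, a vasoactive peptide of endothelium. It read 521 and 634 in the Prox1-labelled clones, against 329 in pcDNA clone 2 and 1229 in pcDNA clone 1. The log2 difference of the pcDNA clones, clone 2 minus clone 1, was -1.76, with the Prox1-labelled clones between them. The change was -0.16 ± 0.46 (adjusted p = 0.912), or -1.04 without pcDNA clone 2 and 0.73 without pcDNA clone 1. Bnip3, a mitochondrial protein that promotes mitophagy in hypoxia, read 742 and 629 in the Prox1-labelled clones, against 398 and 787 in pcDNA clones 2 and 1 (0.26 ± 0.29, adjusted p = 0.737).

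Higd1a, a mitochondrial inner membrane protein, read 2114 and 2338 in the Prox1-labelled clones, against 1292 and 1885 in pcDNA clones 2 and 1. The groups did not overlap (0.50 ± 0.22, unadjusted p = 0.0483, adjusted p = 0.341), and the change was 0.23 without pcDNA clone 2 and 0.76 without pcDNA clone 1. A dimmer Higd1a probe set, below the filter, separated the groups the other way. It read 118.3 and 118.4 in the Prox1-labelled clones, against 145.7 and 179.5 in pcDNA clones 2 and 1. Another, at 20.4 to 37.4, did not separate them. Ero1l, the endoplasmic reticulum oxidase that drives disulfide formation, read 2724 and 2255 in the Prox1-labelled clones, against 2743 and 3087 in pcDNA clones 2 and 1 (-0.23 ± 0.19, adjusted p = 0.628). The other tested Ero1l probe sets gave -0.51 and -0.052 (adjusted p = 0.357 and 0.948). Mxi1, which encodes a Max partner that opposes Myc, read 335 and 309 in the Prox1-labelled clones, against 254 and 355 in pcDNA clones 2 and 1 (0.084, adjusted p = 0.902). Car9, a cell surface carbonic anhydrase often used as a hypoxia marker, was dim, with 190 and 240.1 in the Prox1-labelled clones, against 207 and 154 in pcDNA clones 2 and 1 (0.21 ± 0.23, adjusted p = 0.748). Ndrg1 lay below the filter, from 130.1 to 208.

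**Figure D2:**
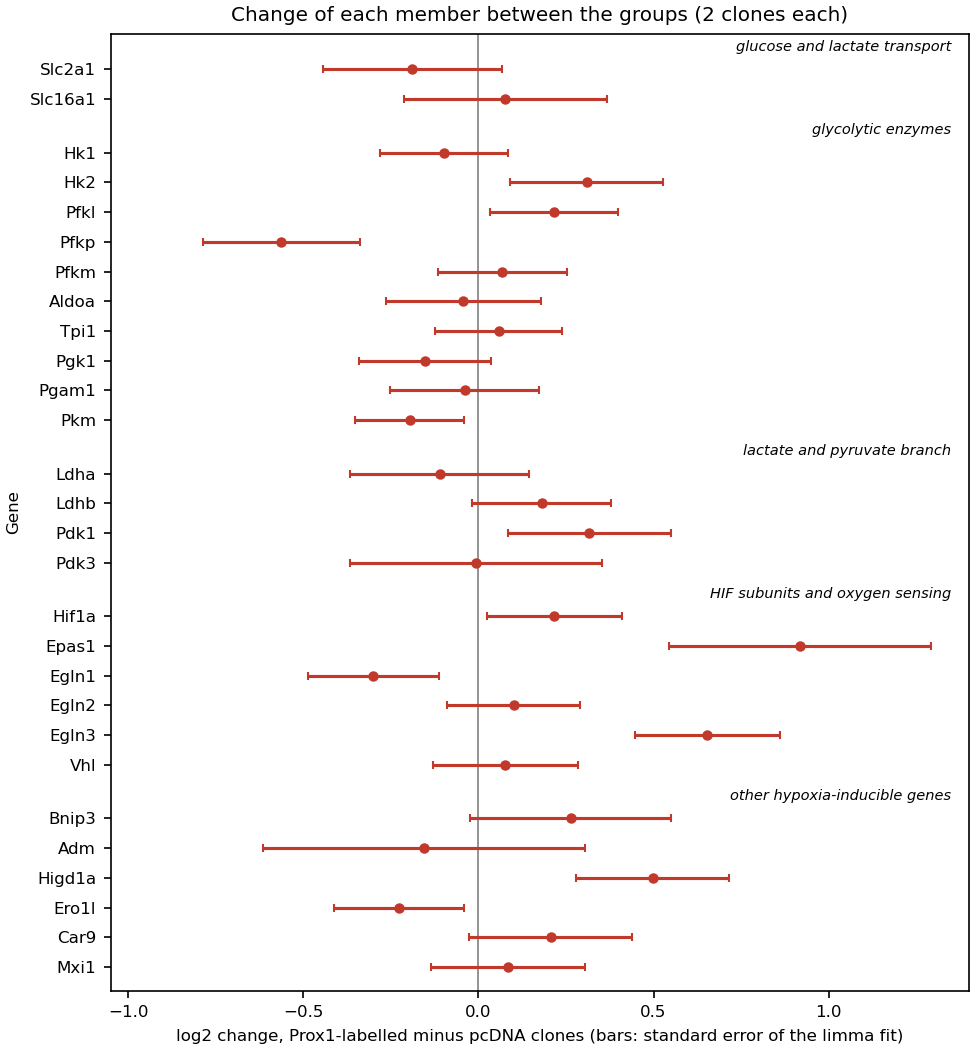
Log2 change of the 28 tested genes, Prox1-labelled minus pcDNA clones (x axis), 1 row each. Points are estimates and bars standard errors of the limma fit over 2 clones a group. Epas1 (0.92), Egln3 (0.65) and Higd1a (0.50) lie farthest to the right and Pfkp (-0.56) farthest to the left, and 0 passed the threshold.

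The median absolute log2 difference over the 28 tested genes was 0.43 between the pcDNA clones, against 0.19 to 0.29 between a Prox1-labelled and a pcDNA clone. Over all tested genes it was 0.26 between the pcDNA clones and 0.225 to 0.29 between a Prox1-labelled and a pcDNA clone. Between the Prox1-labelled clones it was 0.165 over the members and 0.159 over all tested genes. Over the 10 glycolytic enzymes the median absolute difference was 0.14 between the pcDNA clones. Against pcDNA clones 2 and 1 it was 0.28 and 0.23 for Prox1-labelled clone 2, and 0.13 and 0.20 for Prox1-labelled clone 1. With 1 array a clone the difference between the pcDNA clones has no replicate check. The median log2 difference, pcDNA clone 2 minus clone 1, was -0.29 over the members and 0.064 over all tested genes. Clone 2 was lower than clone 1 for 19 members (67.9%), against 43.2% of all tested genes and 65.2% of those in the top 10% by signal. Adm was lower and Epas1 higher by 2-fold or more (3.57% of members in each direction), beside 0.877% and 2.23% of all tested genes (3.11% in either direction). At 0.5 log2, a bound chosen after the values were seen, 9 members were lower (32.1%) and 2 higher (7.14%) in clone 2, beside 6.90% and 13.4% of all tested genes (20.3% in either direction). The 9 were Slc2a1, Slc16a1, Aldoa, Pgam1, Ldha, Pdk3, Bnip3, Adm and Higd1a, and the 2 were Epas1 and Pdk1. Between the Prox1-labelled clones 2 members were 0.5 log2 or more apart (7.14%, beside 6.56% of all tested genes).

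By role, the median difference between the pcDNA clones was -0.71 for the 2 transporters, -0.11 for the 10 glycolytic enzymes, -0.37 for the 4 genes of the pyruvate branch, 0.025 for the 6 genes of HIF and oxygen sensing and -0.47 for the 6 other hypoxia-inducible genes. Of 13 members with more than 1 tested probe set, 10 had all of them on the same side of 0. The exceptions were Pfkl, Egln1 and Egln3. For Hk1, Ldhb and Pdk1, which are among the 10, that side was above 0. Probe sets of a gene share the same arrays, and the like share over all tested genes is not given here.

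The arrays of the pcDNA clones also differed in ways not tied to these genes, and the part of these in the result was not tested. The 18 probe sets of hybridization spikes, transcripts added in fixed amount, had a median log2 difference of 0.46 for pcDNA clone 1 over pcDNA clone 2, and of 0.23 and 0.28 for Prox1-labelled clones 1 and 2 over pcDNA clone 2. Genes in the top 10% by signal had a median difference of -0.12 between pcDNA clones 2 and 1, the 8 members among them one of -0.43, all with clone 1 above, and the 20 other members one of -0.037, with clone 1 above for 11 of them (55.0%). Under quantile normalization, which gives all arrays the same distribution, the median over the members was -0.16, over all genes 0.020 and over the top 10% 0.022, with 9 members lower and 2 higher by 0.5 log2 (beside 7.98% and 10.5% of all tested genes). Among the 9, Hk2 and Mxi1 stood in place of Aldoa and Pgam1. Under this normalization pcDNA clone 2 was below clone 1 for 20 members (71.4%), beside 47.7% of all tested genes and 47.1% of the top 10%. With arrays centred on their medians the members' median was -0.38 and that of all genes -0.030, and 14 members were lower and 2 higher by 0.5 log2 (beside 10.6% and 9.30% of all tested genes). The 3′ to 5′ signal ratio of Gapdh, a measure of RNA integrity, ran from 0.759 to 0.800 over the 4 arrays, and that of beta-actin from 1.29 to 1.44.

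**Figure D3:**
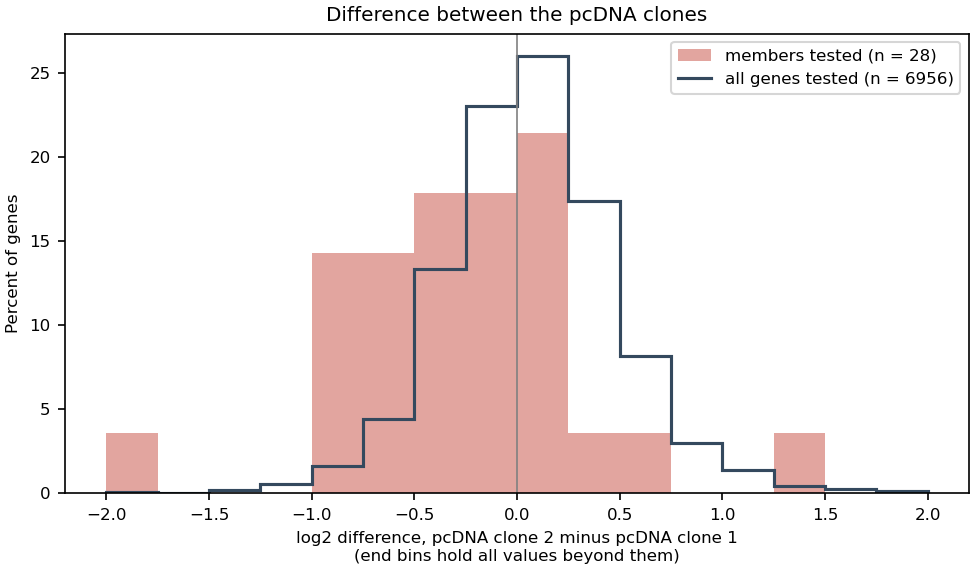
Distribution of the log2 difference, pcDNA clone 2 minus pcDNA clone 1 (x axis, bins of 0.25), as percent of genes (y axis), for the 28 tested members (filled) and all 6956 tested genes (line). The members lie further to the left, with a median of -0.29, against 0.064 over all tested genes.

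The Prox1-labelled clones stood between the pcDNA clones for 8 members (28.6%, beside 19.0% of all tested genes), and pcDNA clone 1 was the higher one for each of these 8 (beside 7.48% of all tested genes). These were Slc16a1, Aldoa, Pgam1, Ldha, Pdk3, Bnip3, Adm and Mxi1. Both Prox1-labelled clones were above both pcDNA clones for 7 members (25%, beside 23.2%), namely Hk2, Pfkl, Pfkm, Ldhb, Epas1, Egln3 and Higd1a. They were below both for 4 (14.3%, beside 23.2%), namely Pfkp, Pkm, Egln1 and Ero1l. The remaining 9 had another order. The median log2 difference of the members was -0.075 and -0.023 for Prox1-labelled clones 1 and 2 against pcDNA clone 1, and 0.050 and 0.28 against pcDNA clone 2. These comparisons share their control arrays.

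Leaving out a pcDNA clone restates the difference between the pcDNA clones, since the changes without clone 1 and without clone 2 average to the change over all 4. Without pcDNA clone 1, the change was positive for 22 of 28 (78.6%, beside 46.4% of all tested genes), at a median of 0.14, and 1, Egln3, passed the threshold (0.992% of all tested genes did). Without pcDNA clone 2, it was positive for 12 (42.9%, beside 53.4%), at a median of -0.071, and Adm and Ldha passed as lower and Epas1 as higher (10.7% of members, beside 10.3% of all tested genes). Those fits hold no spread between pcDNA clones.

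Further genes of these pathways, from lists that do not include the members, were examined in the same way. Of 39 other genes of glycolysis and pyruvate use, 17 were tested and 0 passed the threshold (0.115% of all tested genes did). Their changes were positive for 11 and negative for 6 (50.9% of all tested genes were positive), with a median of 0.075. The largest were Dlat, a subunit of pyruvate dehydrogenase (170 and 282 in the Prox1-labelled clones, against 360 and 434 in pcDNA clones 2 and 1, log2 change -0.73, adjusted p = 0.248), the sugar transporter gene Slc2a8 (0.37), the phosphoglucomutase gene Pgm1 (0.32) and Mpc1, a subunit of the mitochondrial pyruvate carrier (-0.32). Mpc1 read 246 and 254 in the Prox1-labelled clones, against 219 and 470.0 in pcDNA clones 2 and 1. For 12 of these 17 genes (70.6%) pcDNA clone 2 was below clone 1, with a median difference of -0.26, beside 43.2% of all tested genes and 65.2% of those in the top 10% by signal.

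Of 67 other hypoxia response genes, 48 were tested, with 25 positive and 23 negative changes (50.9% of all tested genes were positive) and a median of 0.006. A single one passed the threshold, where 0.115% of all tested genes did. It was Tgfb3, a TGF-beta ligand, at 189 and 207 in the Prox1-labelled clones, against 20.3 and 12.96 in pcDNA clones 2 and 1 (1.95, adjusted p = 0.0298). Both pcDNA values lay within the range of the Bacillus controls, so the size of the change is not exact. Tgfb3 passed the intensity filter only through the Prox1-labelled clones, and the call was lost without the filter (adjusted p = 0.367). The others with the largest changes were Igfbp3, an IGF-binding protein (4.06 and 420.4 in the Prox1-labelled clones, against 1844 and 196 in pcDNA clones 2 and 1, -2.13 ± 1.05, adjusted p = 0.391), the collagen prolyl hydroxylase gene P4ha2 (-1.55, adjusted p = 0.0836, or 0.367 without the filter) and Hmox1. P4ha2 read 90.4 and 142 in the Prox1-labelled clones, against 353 and 513 in pcDNA clones 2 and 1, and passed the filter only through the pcDNA clones. Hmox1, the inducible heme oxygenase, read 3015 and 2959 in the Prox1-labelled clones, against 4709 in pcDNA clone 2 and 12127 in pcDNA clone 1 (-1.33 ± 0.36, adjusted p = 0.175). Vegfa, the classical angiogenic target of HIF and named here after its values were seen, read 275 and 201 in the Prox1-labelled clones, against 273 and 399 in pcDNA clones 2 and 1 (-0.42, adjusted p = 0.474). In this list pcDNA clone 2 was below clone 1 for 31 of 48 genes (64.6%), beside 43.2% of all tested genes and 65.2% of the top 10% by signal. The median difference was -0.29, beside 0.064 over all tested genes and -0.12 over the top 10%.

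The annotated promoters of the members were searched for ACGTG on both strands, not for the other form of the core, GCGTG, in windows of 250 bases before to 50 after each annotated start (RefSeq, GRCm38.p6). CACGTG, the E-box, holds a match on either strand. Windows were given for 27 of the 28 tested members, and Epas1 had none. Of their 39 windows 23 held ACGTG (59.0%), where 26.7% of the windows of tested genes and 19.6% of all windows did. Per gene, 20 of 27 (74.1%, beside 31.1% of tested genes) had it in at least 1 window, with 7 of 10 glycolytic enzymes and 5 of 6 other hypoxia-inducible genes among them. A match is a stretch of letters and does not show binding, and genes with more windows have more chances of one. The sequences below belong to the 5 tested members with the widest gap between the pcDNA clones among those whose window holds ACGTG. For Ldha, with 2 windows, the window with the most matches is shown. For Aldoa 2 of 3 windows held 1 match each, and 1 of these 2 is shown. Capitals mark each match, read as ACGTG or, on the other strand, as CACGT. They lie at chrX:93832101-93832400 on the minus strand (Pdk3), chr7:138909457-138909756 on the minus strand (Bnip3), chr3:104638414-104638713 on the plus strand (Slc16a1), chr7:46845554-46845853 on the plus strand (Ldha) and chr7:126799129-126799428 on the minus strand (Aldoa).
Pdk3: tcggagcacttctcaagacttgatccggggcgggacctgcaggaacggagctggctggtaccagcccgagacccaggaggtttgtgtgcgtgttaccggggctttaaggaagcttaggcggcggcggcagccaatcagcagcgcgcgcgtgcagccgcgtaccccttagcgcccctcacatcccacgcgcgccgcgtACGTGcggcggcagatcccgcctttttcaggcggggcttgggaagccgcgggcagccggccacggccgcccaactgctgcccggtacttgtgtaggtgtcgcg
Bnip3: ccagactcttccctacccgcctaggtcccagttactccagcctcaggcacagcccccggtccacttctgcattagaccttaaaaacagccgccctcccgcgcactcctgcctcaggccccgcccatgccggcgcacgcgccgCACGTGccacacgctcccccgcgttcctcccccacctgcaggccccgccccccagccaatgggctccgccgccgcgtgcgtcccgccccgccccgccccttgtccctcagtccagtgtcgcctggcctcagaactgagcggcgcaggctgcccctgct
Slc16a1: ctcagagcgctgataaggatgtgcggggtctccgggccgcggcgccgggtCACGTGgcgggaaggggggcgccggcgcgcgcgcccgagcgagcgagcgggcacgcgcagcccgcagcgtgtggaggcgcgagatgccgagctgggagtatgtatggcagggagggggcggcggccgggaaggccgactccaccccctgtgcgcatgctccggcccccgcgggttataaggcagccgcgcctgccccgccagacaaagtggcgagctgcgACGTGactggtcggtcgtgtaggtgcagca
Ldha: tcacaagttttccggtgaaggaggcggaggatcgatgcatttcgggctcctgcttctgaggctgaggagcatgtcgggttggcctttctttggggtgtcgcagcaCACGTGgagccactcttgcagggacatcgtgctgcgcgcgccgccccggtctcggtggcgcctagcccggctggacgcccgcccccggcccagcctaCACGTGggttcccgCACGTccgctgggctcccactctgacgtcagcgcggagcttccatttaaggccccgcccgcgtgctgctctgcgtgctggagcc
Aldoa: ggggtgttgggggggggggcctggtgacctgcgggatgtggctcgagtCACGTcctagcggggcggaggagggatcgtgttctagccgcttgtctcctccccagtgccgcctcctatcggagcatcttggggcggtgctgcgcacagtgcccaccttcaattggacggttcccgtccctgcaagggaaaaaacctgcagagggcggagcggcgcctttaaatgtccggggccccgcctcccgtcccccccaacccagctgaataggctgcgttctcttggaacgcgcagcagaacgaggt

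Ldha carried 3 separate stretches, 2 of them E-boxes, between positions -145 and -30 from its start. Slc16a1 had an E-box from position -200 and a single ACGTG from position 21, and Bnip3 had 1 E-box from position -108. Pdk3 and Aldoa each had 1 match outside an E-box, from positions -53 and -202, the latter counted from the start of the Aldoa window shown. These 5 genes were picked for their gap between the pcDNA clones, so their intensities are no pattern tied to the motif. The window of Adm, with the widest gap of all members, held no ACGTG.

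**Figure D4:**
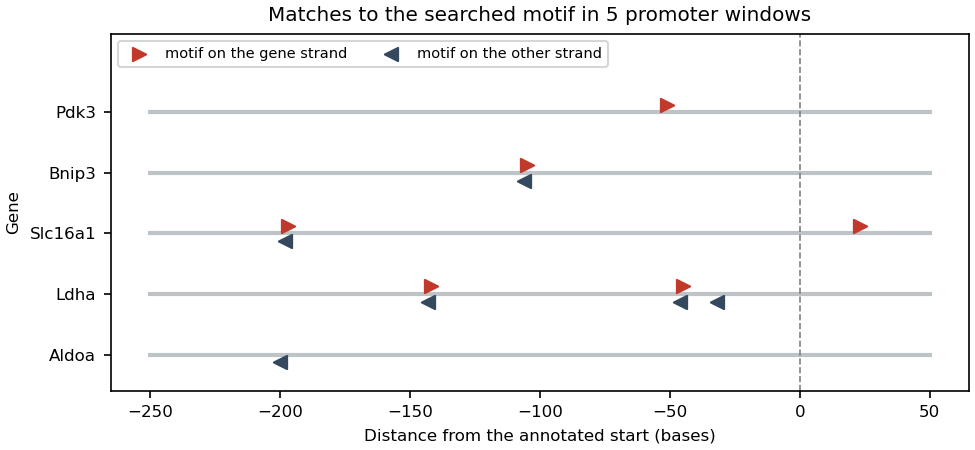
Matches to ACGTG (symbols) in the promoter windows of 5 members, by distance from the annotated start in bases (x axis). Right-pointing symbols are on the strand of the gene and left-pointing ones on the other strand, and a pair at nearly the same place is an E-box. Ldha has 3 stretches, Slc16a1 has 2 and the others 1 each.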

How the data were processed

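Total RNA of 4 Py-4-1 clones was hybridized to one-colour Affymetrix arrays. The deposited intensity values, 1 per probe set and array, were made with MAS5 per the submitters' processing notes, of which no version is given in the sources. Each column had a 2% trimmed mean of 500, and no further normalization was applied. Detection calls were not used. Groups and clone numbers came from the sample titles.

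Values were analysed as log2(intensity + 47), 47 being the 25th percentile of all values. This scale understates changes of dim probe sets. The 64 control probe sets were left out, and probe sets above the array median on at least 2 of 4 arrays were tested. That left 11656 of 22690, for 6956 genes. The test was that of limma 3.58.1 under R 4.3.3 (lmFit, eBayes with an intensity trend, 2-sided), adjusted by Benjamini-Hochberg over all probe sets tested, with a threshold of 0.05. All adjusted p-values come from such fits. The p-values and standard errors combine the spread between the 2 clones a group with a variance trend shared by all probe sets tested. They cover no clones beyond these 4, and an exact permutation test cannot go below 0.333. The number of arrays limits the precision.

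Genes were named only from probe sets with 1 gene in the platform annotation. Each gene was read from its brightest probe set by mean log2 value. Every member was named, and the tested ones were given with each clone's value. From each further list the genes past the threshold and the 4 with the largest absolute changes were named. Second probe sets were named where the sign differed or the change differed by 0.5 or more, and others were chosen after their values were seen. Promoters were printed for up to 5 tested members with ACGTG and the widest gap between the pcDNA clones. Members and lists were chosen with earlier results of these data known. The fit was tested on simulated data. Same-numbered clones' deviations from their group means had a correlation of -0.00909 over probe sets, and nothing in the labels pairs them. Alternatives were other scalings, pseudocounts, filters, variance models, the clone number as a block, each clone left out, and other choices of probe set.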

Additional observations from a re-analysis of the deposited data

How the results depend on the processing

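The number of members past the threshold stayed at 0 under every alternative that kept all 4 clones and the adjusted threshold, and was 0 to 3 when a clone was left out and 4 at an unadjusted p under 0.05. The members' median change between the groups ran from 0.026 to 0.077 with all 4 clones and from -0.071 to 0.14 with a clone left out, so its sign rests on single clones. The count of probe sets past the threshold, 12 (0.103% of those tested), was 4 under quantile normalization, 0 without the intensity filter (no member among them), 7 with a robust variance model, 110 with the clone number as a replicate block, and 42 to 1150 with a clone left out. The numbers do not pair the clones, and the block called 0 members. The median difference between the pcDNA clones, -0.29, was -0.16 under quantile normalization, -0.43 with the stricter filter and -0.17 without probe sets of the x_at or s_at suffix. It was negative in each case, as in the other alternatives run for it. Members 2-fold or more apart between the pcDNA clones numbered 2 (7.14%, beside 3.11% of all tested genes). They numbered 3 under quantile normalization, where 68 of all 6956 tested genes were lower and 119 higher in pcDNA clone 2. Without a pseudocount they numbered 3 (beside 86 genes lower and 222 higher), and with median centring 4 (beside 86 lower and 108 higher). At the looser 0.5 log2 bound 11 members were apart (39.3%, beside 20.3% of all tested genes). The causes were not tested.

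Of 441 values of single members under the alternatives, 22 had the opposite sign, for 15 members, and 13 members kept their sign throughout. On leaving out a clone the change of Slc2a1 ran from -0.48 to 0.097, Slc16a1 from -0.37 to 0.53, Aldoa from -0.38 to 0.30, Tpi1 from -0.096 to 0.21, Pgk1 from -0.38 to 0.071, Pgam1 from -0.30 to 0.23, Ldha from -0.54 to 0.32, Pdk3 from -0.49 to 0.47, Egln2 from -0.005 to 0.21, Vhl from -0.068 to 0.22, Bnip3 from -0.19 to 0.72, Adm from -1.04 to 0.73 and Mxi1 from -0.12 to 0.29. With the least bright tested probe set, an alternative chosen after seeing the data like the unadjusted p and the 0.5 log2 bound, Slc2a1 gave 0.12, Pfkl -0.10, Aldoa 0.048 and Pdk1 -0.091.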
